A study of Mus musculus with 6 samples.

Results

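Creatine kinase, glycolysis and glycogen breakdown were followed through 10 gene symbols, taken by name. Earlier results of these data were known when the symbols were chosen. *Ckm* encodes muscle creatine kinase, *Pygm* muscle glycogen phosphorylase, and *Pfkm*, *Aldoa*, *Gapdh*, *Pgam2*, *Eno3* and *Pkm* are glycolytic enzymes. *A930016O22Rik* and *Fam57b* are the genes that lie across from *Ckm* and *Aldoa* on the opposite strand. The symbols stand for 11 of the 52636 gene IDs in the count table, because *Aldoa* has 2 IDs. Of these, 10 passed the filter on low counts and *Pygm* did not.

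The RNA was isolated from the tibialis anterior (TA), a fast muscle of the lower leg, of 3 iMS*Bmal1*+/+ and 3 iMS*Bmal1*-/- male C57BL/6 mice. All mice carried floxed *Bmal1*, the gene of a transcription factor at the core of the circadian clock, and an inducible Cre recombinase (MerCreMer) driven by the human skeletal actin promoter. At 12 to 16 weeks of age, the iMS*Bmal1*-/- mice were given 2 mg of tamoxifen per day for 5 days, the iMS*Bmal1*+/+ mice were given vehicle, and muscles were collected 5 weeks later. Genotype and tamoxifen therefore cannot be told apart, and since Cre is active in muscle fibers, the other cells of the TA keep *Bmal1*. The libraries were stranded and depleted of ribosomal RNA. For iMS*Bmal1*+/+ they held 2091912, 1997203 and 2716079 counts, and for iMS*Bmal1*-/- 2403438, 1616290 and 2068657. The deleted gene itself (listed as *Arntl*) was covered, over all of its exons, by 5, 4 and 11 counts in iMS*Bmal1*+/+ muscle, while iMS*Bmal1*-/- muscle gave 13, 5 and 5. These counts do not separate the genotypes, so the group names rest on the sample labels.

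In a contracting muscle fiber, creatine kinase moves a phosphate from phosphocreatine to ADP and restores ATP faster than any other route. Glycogen phosphorylase then releases glucose units from glycogen, and glycolysis breaks these down to pyruvate. Fast fibers, which make up most of the TA, hold large amounts of these enzymes.

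The main observation is that the counts listed under most of these enzymes were higher in iMS*Bmal1*-/- muscle. No difference passed the threshold of an adjusted p of 0.05. On the log2 scale, the 7 enzymes with a tested gene were higher by between 0.14 and 0.70 (for *Aldoa*, its first ID). The second *Aldoa* ID was at 0.03 and changed sign under 3 of the 12 alternative settings. Counts of *Ckm* and of the first *Aldoa* ID were 0.877 and 1.92% of those of *A930016O22Rik* and *Fam57b* across from them. The log2 fold changes of *A930016O22Rik* and *Fam57b* were 0.13 and -0.03. Over the whole table, 125 of 6831 tested genes (1.83%) passed in edgeR's quasi-likelihood test, and 0 of the 10 tested IDs did, as was also the case with DESeq2 and with limma, whereas 2 (*Ckm* and *Pgam2*) passed in edgeR when iMS*Bmal1*+/+ replicate 2 was left out. Leaving out iMS*Bmal1*-/- replicate 1 gave 69 and leaving out iMS*Bmal1*-/- replicate 2 gave 59 in place of the 125. At an unadjusted p under 0.05, 6 of the 10 were higher in iMS*Bmal1*-/- muscle and 0 were lower, where 5.84% of all tested genes were higher and 6.08% lower. Without iMS*Bmal1*-/- replicate 3, 3 of the 10 were. The groups did not overlap, with iMS*Bmal1*-/- higher, for 5 of the 10, against 8.84% of all tested genes. The symbols were chosen with earlier results known and the genes share libraries, so these shares are a description and no test. In bulk muscle, more cells of a type and more RNA per cell cannot be told apart. The libraries are separate samples in the labels, and the p-values measure the spread between them.

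The counts of *Ckm* and *Aldoa* cannot be read without the genes across from them. *Ckm* (ENSMUSG00000030399) lies on the plus strand of chromosome 7 at chr7:19404776-19422841 (GRCm38). *A930016O22Rik* (ENSMUSG00000040705), annotated as an antisense gene, lies at chr7:19417466-19421417 on the minus strand. Their exons share 451 bp in 3 blocks, which is 17.6% of the 2560 bp of *A930016O22Rik* exons. The first block (chr7:19419439-19419553) and the second (chr7:19420107-19420232) are coding sequence of *Ckm* throughout, and the last (chr7:19421208-19421417) is coding for 176 of its 210 bp. The 115 bases of the first block are shown in the direction of *Ckm* (plus strand, transcript Ckm-203 of GENCODE), because a read from this stretch can be assigned to either gene by its strand alone.
*Ckm*, chr7:19419439-19419553: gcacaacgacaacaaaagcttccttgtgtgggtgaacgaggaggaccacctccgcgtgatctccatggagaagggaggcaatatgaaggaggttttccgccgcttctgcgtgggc

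At the *Aldoa* locus the overlap is much shorter. *Aldoa* (ENSMUSG00000030695) lies at chr7:126795234-126800751 on the minus strand, and its second ID (ENSMUSG00000114515) begins 38 bp beyond that end, at chr7:126800790-126809108. *Fam57b* (ENSMUSG00000058966, named *Tlcd3b* in RefSeq), which encodes a protein with a TLC domain, runs on the plus strand at chr7:126797668-126830219. Of its 3935 bp of exons, 25 overlap *Aldoa*. They are the whole first exon of transcript Fam57b-203, they lie within *Aldoa* coding sequence, and the next *Fam57b* exon starts 14990 bp further on, beyond both *Aldoa* IDs. The same bases are shown once as each gene carries them.
*Fam57b* exon, plus strand, chr7:126797668-126797692: tgcccttgcccggagccacaatgcg
*Aldoa* coding sequence, minus strand, chr7:126797668-126797692: cgcattgtggctccgggcaagggca

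**Figure D1:**
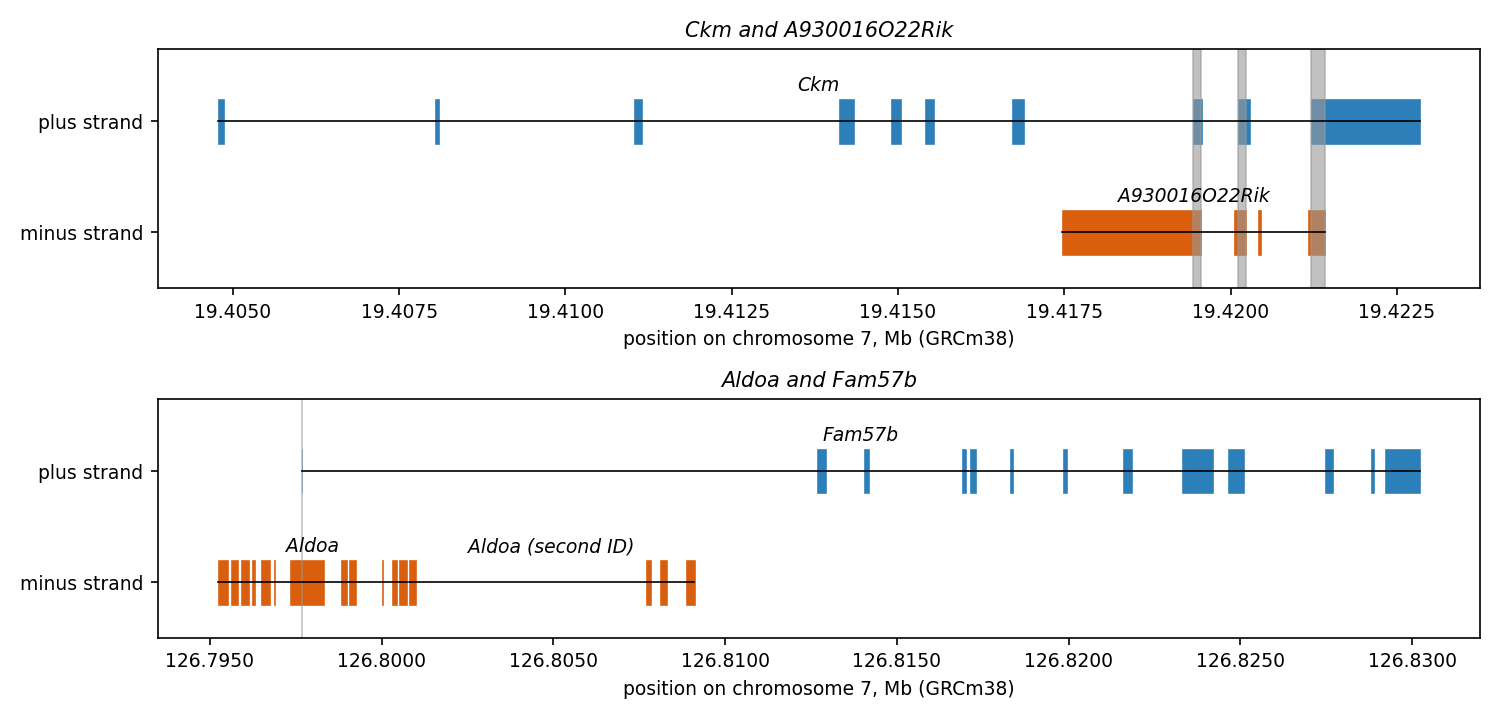
Exons (boxes) of *Ckm* and *A930016O22Rik* and of *Aldoa* (both IDs) and *Fam57b*, drawn to scale by strand, with position on chromosome 7 in Mb (GRCm38) on the horizontal axis. Grey bands mark the bases that exons of both strands share, 451 bp in the upper and 25 bp in the lower map.

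The table lists 158662, 161777 and 224171 counts of *A930016O22Rik* for iMS*Bmal1*+/+, and 214083, 147130 and 186826 for iMS*Bmal1*-/-. This made it the gene with rank 2 in the whole table by mean CPM (counts scaled to library size after TMM normalization), with between 7.58 and 9.10% of the counts of a library. For *Ckm* it lists 1219, 1535 and 1478 counts for iMS*Bmal1*+/+, and 1997, 1378 and 1976 for iMS*Bmal1*-/-. Most counts at the creatine kinase locus are thus listed under the antisense gene, and *Ckm* itself had rank 94. *Fam57b* had rank 9, with between 36276 and 66043 counts per library, and the first *Aldoa* ID had rank 165, with between 764 and 1257. The strand setting of the counting is not given in the sources used here. Reads of a gene and of the gene across from it therefore cannot be told apart, and every value is given for the gene under which the table lists it. Counts of a gene were also set against those of the gene across from it, over all libraries together. This ratio ran from 0.238 to 24.2% among the 13 pairs compared below. Of these, 11 were taken only where the opposite gene had the higher CPM, so the range does not describe facing genes in general. *Gapdh* had 558 counts against 390 of *Iffo1* across from it, and *Pfkm* 1167 against 28 of *Senp1*. *mt-Co1* and *mt-Nd6*, a pair on opposite strands of the mitochondrial genome that shares no exon bases and was chosen after its values had been seen, had 3861 and 416836 counts, or 0.926%, with a range by library from 0.686 to 1.87% (iMS*Bmal1*-/- replicate 2). No cause of these ratios was tested.

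Expressed in CPM, *Ckm* stood at 606, 792 and 561 in the 3 iMS*Bmal1*+/+ libraries and at 869, 825 and 942 in the 3 iMS*Bmal1*-/- libraries. The genotypes did not overlap, but iMS*Bmal1*+/+ replicate 2 came close to the lowest iMS*Bmal1*-/- library. The means were 653 ± 123 (SD, n = 3) and 879 ± 59.0 (SD, n = 3), and the log2 fold change of 0.43 (SE 0.12) had an edgeR adjusted p of 0.0822. Without iMS*Bmal1*+/+ replicate 2 the fold change was 0.59 and the edgeR adjusted p 0.00987, within a range of 0.00987 to 0.260 over the 12 alternative settings.

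For *A930016O22Rik*, iMS*Bmal1*+/+ muscle had 78895, 83514 and 85088 CPM, whereas iMS*Bmal1*-/- muscle had 93153, 88136 and 89088 CPM. All 3 iMS*Bmal1*-/- libraries lay above all 3 iMS*Bmal1*+/+ libraries here too, by a narrower margin relative to the level. The means were 82499 ± 3219 (SD, n = 3) and 90126 ± 2665 (SD, n = 3). The log2 fold change was 0.13 (SE 0.11) with an edgeR adjusted p of 0.727, and its 95% interval ran from -0.09 to 0.34.

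A ratio within a library needs no normalization, and the counts of *Ckm* were set against those of *A930016O22Rik* in this way. For iMS*Bmal1*+/+, *Ckm* amounted to 0.768, 0.949 and 0.659% of *A930016O22Rik*, and for iMS*Bmal1*-/- to 0.933, 0.937 and 1.06%. iMS*Bmal1*+/+ replicate 2 lay between the iMS*Bmal1*-/- libraries, so the genotypes overlapped. The log2 ratio was higher by 0.31 in iMS*Bmal1*-/- muscle, with p = 0.3 in a two-sided exact permutation test, for which 3 libraries against 3 allow no p below 0.1. The difference was 0.19 without iMS*Bmal1*+/+ replicate 3.

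In glycolysis, *Pfkm* encodes muscle phosphofructokinase, which commits the sugar phosphate to breakdown. It had 81.5, 89.3 and 93.0 CPM in iMS*Bmal1*+/+ and 87.0, 98.2 and 105 CPM in iMS*Bmal1*-/- libraries. The genotypes overlapped, and the log2 fold change was 0.14 (SE 0.13, edgeR adjusted p = 0.770). Leaving out iMS*Bmal1*-/- replicate 3 gave 0.07, leaving out iMS*Bmal1*+/+ replicate 1 gave 0.09, and leaving out iMS*Bmal1*-/- replicate 1 gave 0.21. *Pfkm* (ENSMUSG00000033065, chr15:98092589-98132451) shares 18 bp of noncoding exon with *Senp1*, a SUMO protease gene on the other strand, which had between 3 and 9 counts per library and was not tested.

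Aldolase A, the product of *Aldoa*, splits the sugar phosphate made in that step into smaller pieces. The first *Aldoa* ID had 380, 470 and 375 CPM in iMS*Bmal1*+/+ and 463, 521 and 599 CPM in iMS*Bmal1*-/- libraries. iMS*Bmal1*+/+ replicate 2 stood above iMS*Bmal1*-/- replicate 1, so that the genotypes overlapped by this pair. From means of 409 ± 53.5 (SD, n = 3) and 528 ± 68.5 (SD, n = 3), the log2 fold change was 0.37 (SE 0.12, edgeR adjusted p = 0.148). The second *Aldoa* ID stood at similar levels in both genotypes, with 375, 398 and 380 CPM in iMS*Bmal1*+/+ and 370, 366 and 437 CPM in iMS*Bmal1*-/- muscle. For this ID the log2 fold change was 0.03 (SE 0.10, edgeR adjusted p = 0.963). How the counting divided reads between these neighboring IDs is not known, and both values are uncertain for that reason. The difference between the IDs was not tested.

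*Fam57b* had 22499, 25247 and 25068 CPM in iMS*Bmal1*+/+ and 24946, 21731 and 24660.2 CPM in iMS*Bmal1*-/- libraries. The libraries of both genotypes were interleaved, and the log2 fold change of -0.03 (SE 0.11, edgeR adjusted p = 0.960) had a 95% interval from -0.24 to 0.18. Within a library, the counts of *Aldoa* (first ID) amounted to 1.69, 1.86 and 1.50% of those of *Fam57b* for iMS*Bmal1*+/+. For iMS*Bmal1*-/- they amounted to 1.86, 2.40 and 2.43%. iMS*Bmal1*+/+ replicate 2 and iMS*Bmal1*-/- replicate 1 had nearly the same ratio, and the log2 ratio differed by 0.40 (p = 0.2, two-sided exact permutation test).

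*Gapdh* (ENSMUSG00000057666, chr6:125161715-125166467), whose enzyme oxidizes glyceraldehyde phosphate and yields NADH, is often used as a reference gene. It stood at 24.9, 43.4 and 40.6 CPM for iMS*Bmal1*+/+, and at 45.3, 61.1 and 52.9 CPM for iMS*Bmal1*-/-. The genotypes did not overlap, and iMS*Bmal1*+/+ replicate 1 was well below the others. The log2 fold change was 0.54 (SE 0.20, edgeR adjusted p = 0.246) and became 0.33 without that library. *Gapdh* rests on 50 to 111 counts per library. *Iffo1*, which shares 68 bp of noncoding exon with it on the other strand, had 55 to 84 counts and a log2 fold change of -0.01 (SE 0.23, edgeR adjusted p = 0.990).

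*Pgam2* (ENSMUSG00000020475, chr11:5801640-5803733) encodes the muscle form of phosphoglycerate mutase, which moves the phosphate from one carbon to the next. It had 23.4, 46.5 and 28.8 CPM in iMS*Bmal1*+/+ and 46.6, 59.3 and 54.4 CPM in iMS*Bmal1*-/- libraries. The genotypes were apart only by the small gap between iMS*Bmal1*+/+ replicate 2 and iMS*Bmal1*-/- replicate 1. Its log2 fold change of 0.70 (SE 0.21) was the largest among the 10 tested IDs, with an edgeR adjusted p of 0.118. Without iMS*Bmal1*+/+ replicate 2 it was 1.02 with an edgeR adjusted p of 0.0142, and over the 12 alternatives the adjusted p ranged from 0.0142 to 0.354.

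*Eno3* (ENSMUSG00000060600, chr11:70657202-70662513), the muscle enolase that forms phosphoenolpyruvate, had 73.1, 101 and 78.9 CPM in iMS*Bmal1*+/+ and 99.6, 105 and 138 CPM in iMS*Bmal1*-/- libraries. As with *Aldoa*, iMS*Bmal1*+/+ replicate 2 reached into the range of the other genotype. The log2 fold change was 0.44 (SE 0.16, edgeR adjusted p = 0.210) and 0.28 without iMS*Bmal1*-/- replicate 3, the highest library. *Pkm* (ENSMUSG00000032294, chr9:59656368-59679375), the pyruvate kinase gene of muscle that closes the pathway, had 58.7, 75.4 and 67.9 CPM in iMS*Bmal1*+/+ and 78.8, 87.5 and 113 CPM in iMS*Bmal1*-/- libraries. The genotypes did not overlap for *Pkm*, and the log2 fold change was 0.47 (SE 0.16, edgeR adjusted p = 0.173), or 0.30 without that same library. No annotated exon lies across from those of *Pgam2*, *Eno3* or *Pkm*.

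*Pygm* (ENSMUSG00000032648, chr19:6384399-6398459), which encodes the enzyme that opens glycogen breakdown in muscle, had 1 count in iMS*Bmal1*+/+ replicate 2 and 0 in each of the other libraries. A count of 0 is compatible with up to 3 counts, or 1.14 to 1.80 CPM depending on the library, a limit that covers the error of counting alone. It refers to the reads counted on genes. The study gives a sequencing depth far above these totals, and what became of the reads that were not counted is not seen in the table. No fold change was taken. No annotated exon lies across from *Pygm* either, and the table holds almost no counts at this locus.

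**Figure D2:**
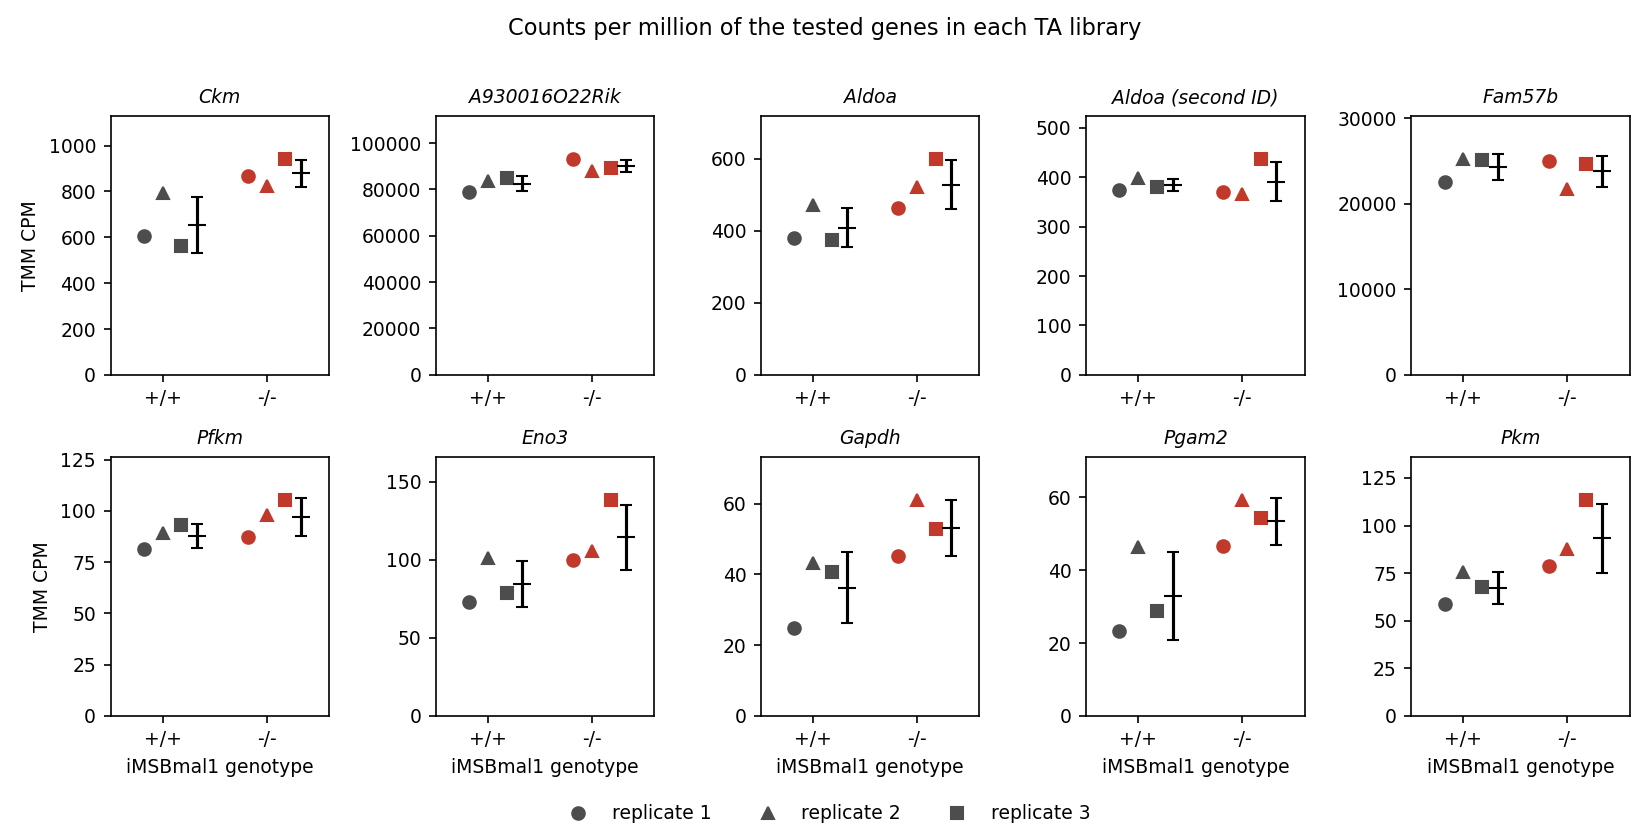
TMM CPM of the 10 tested IDs in each TA library, iMS*Bmal1*+/+ in grey and iMS*Bmal1*-/- in red, with the mean ± SD (n = 3) in black and each vertical axis starting at 0. *Ckm*, *A930016O22Rik*, *Gapdh*, *Pgam2* and *Pkm* are the 5 IDs whose genotypes do not overlap.

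The highest and lowest library of each genotype were counted over the 8 tested enzyme IDs. iMS*Bmal1*+/+ replicate 2 was the highest of its genotype for 7 of them (31.9% of all tested genes), and iMS*Bmal1*+/+ replicate 1 the lowest for 6 (33.1%). In iMS*Bmal1*-/- muscle, replicate 3 was the highest for 6 (34.1%) and replicate 1 the lowest for 6 (32.7%). The replicates are named after their values had been seen, and no test was made of these counts. Within iMS*Bmal1*+/+ muscle, the highest library exceeded the lowest 1.99-fold for *Pgam2* and 1.74-fold for *Gapdh*, compared with 1.06-fold for the second *Aldoa* ID. These genes share libraries and normalization, so their values are no repeats of the comparison. The median log2 fold change of the 8 enzyme IDs was 0.44, and that of all tested genes was 0.00 (52 of the 125 genes past the threshold were higher in iMS*Bmal1*-/- muscle).

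Levels of different genes were compared per kb of annotated exon, for each gene as the table lists it, so that the order rests on the unknown strand setting and, for *Aldoa*, on the division of reads between its IDs. In iMS*Bmal1*+/+ muscle, the second *Aldoa* ID, with 799 bp of exons, had 481 ± 15.2 CPM per kb (SD, n = 3), *Ckm* 224 ± 42.1 (SD, n = 3) and the first *Aldoa* ID 140 ± 18.4 (SD, n = 3). *Eno3* had 48.5 ± 8.52 CPM per kb (SD, n = 3) and *Pgam2* 39.2 ± 14.4 (SD, n = 3). The mean of *Eno3* lay within the spread of *Pgam2*, while the mean of *Pgam2* lay just below the spread of *Eno3*. *Pfkm* had 26.3 ± 1.75 CPM per kb (SD, n = 3), *Pkm* 13.5 ± 1.67 (SD, n = 3) and *Gapdh* 8.78 ± 2.42 (SD, n = 3). The order of the 8 listed levels was the same in iMS*Bmal1*-/- muscle. There *Eno3* and *Pgam2*, with 65.8 ± 12.0 and 63.6 ± 7.65 CPM per kb (SD, n = 3), were within each other's spread. The counts listed under *A930016O22Rik* came to 32226 ± 1257 CPM per kb (SD, n = 3) and those under *Fam57b* to 6168 ± 391 (SD, n = 3) in iMS*Bmal1*+/+ muscle. The latter divides by all 3935 bp of *Fam57b* exons, of which 25 overlap *Aldoa*. Where in these exons the reads lie is not known, so this level is uncertain.

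The remaining genes of the same pathways were listed by function. Without the genes described above, the lists of phosphagen and adenylate metabolism, glycolysis, glycogen breakdown and glycogen synthesis hold 50 gene IDs, of which 30 were tested. None passed the threshold in edgeR or in DESeq2. At an unadjusted p under 0.05, 1 was higher in iMS*Bmal1*-/- muscle (*Pfkfb3*, which makes an activator of phosphofructokinase, log2 fold change 1.03, SE 0.40). At the same limit, 1 was lower (*Pfkp*, the platelet form of phosphofructokinase, -0.36, SE 0.15). Both are named after their values had been seen, with edgeR adjusted p of 0.280 and 0.338. Over all tested genes the shares were 5.84% higher and 6.08% lower. The median log2 fold change of the 30 was 0.11, lower than that of the enzymes described above. By list it was 0.32 for 6 tested phosphagen and adenylate genes, 0.06 for 11 glycolytic genes, 0.11 for 7 genes of glycogen breakdown and -0.06 for 6 genes of glycogen synthesis.

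Creatine kinase has a mitochondrial form in muscle, *Ckmt2*, which had between 13.3 and 29.2 CPM and a log2 fold change of 0.39 (SE 0.25, edgeR adjusted p = 0.592). Across from it lies *1700119I11Rik*, with 3177, 2991 and 1718 CPM in iMS*Bmal1*+/+ and 3317, 3583 and 3065 CPM in iMS*Bmal1*-/- libraries (log2 fold change 0.34, SE 0.16, edgeR adjusted p = 0.421). The value of *1700119I11Rik* moved with single libraries, to 0.11 when iMS*Bmal1*+/+ replicate 3 was left out. The log2 ratio of *Ckmt2* to *1700119I11Rik* counts was higher by 0.05 in iMS*Bmal1*-/- muscle (p = 0.9, two-sided exact permutation test). *Gm26762*, across from the glucose phosphate isomerase gene *Gpi1*, had a log2 fold change of 0.02 (SE 0.10, edgeR adjusted p = 0.968). *Itgb3bp*, across from the phosphoglucomutase gene *Pgm1*, had -0.23 (SE 0.10, edgeR adjusted p = 0.345). In all, 19 gene IDs other than *A930016O22Rik* and *Fam57b* lay across from listed genes, 14 were tested, and their median log2 fold change was 0.02.

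The ratio to the gene across from it was also taken for the other listed pathway and fast fiber genes whose opposite gene had at least 500 CPM and more than the listed gene, a limit set after the values had been seen. There were 11 such pairs. The ratio was higher in iMS*Bmal1*-/- muscle in 9 of them, but the genotypes were without overlap in only 2 (*Myh1* and *Ugp2*). No share over all pairs of facing genes is given, so the 9 are a description. The differences in log2 ratio ran from -0.14 to 0.65 with a median of 0.08. The highest, of *Myh1* against *Myhas*, stood beside a log2 fold change of 0.06 for *Myh1* itself and of -0.60 (SE 0.15, edgeR adjusted p = 0.0447) for *Myhas*. The next, 0.48 for *Ugp2* against *Gm12043*, stood beside 0.23 for *Ugp2* and -0.26 for *Gm12043* (edgeR adjusted p = 0.815 and 0.328). The values of *Ckm* (0.31) and *Aldoa* (0.40) lay within that range, next to 0.43 for the calcium pump gene *Atp2a1* against *Rabep2* and 0.31 for the troponin C gene *Tnnc2* against *Ube2c*. Pairs share the libraries, and none of these ratios can reach a p below 0.1 with 3 libraries a genotype.

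**Figure D3:**
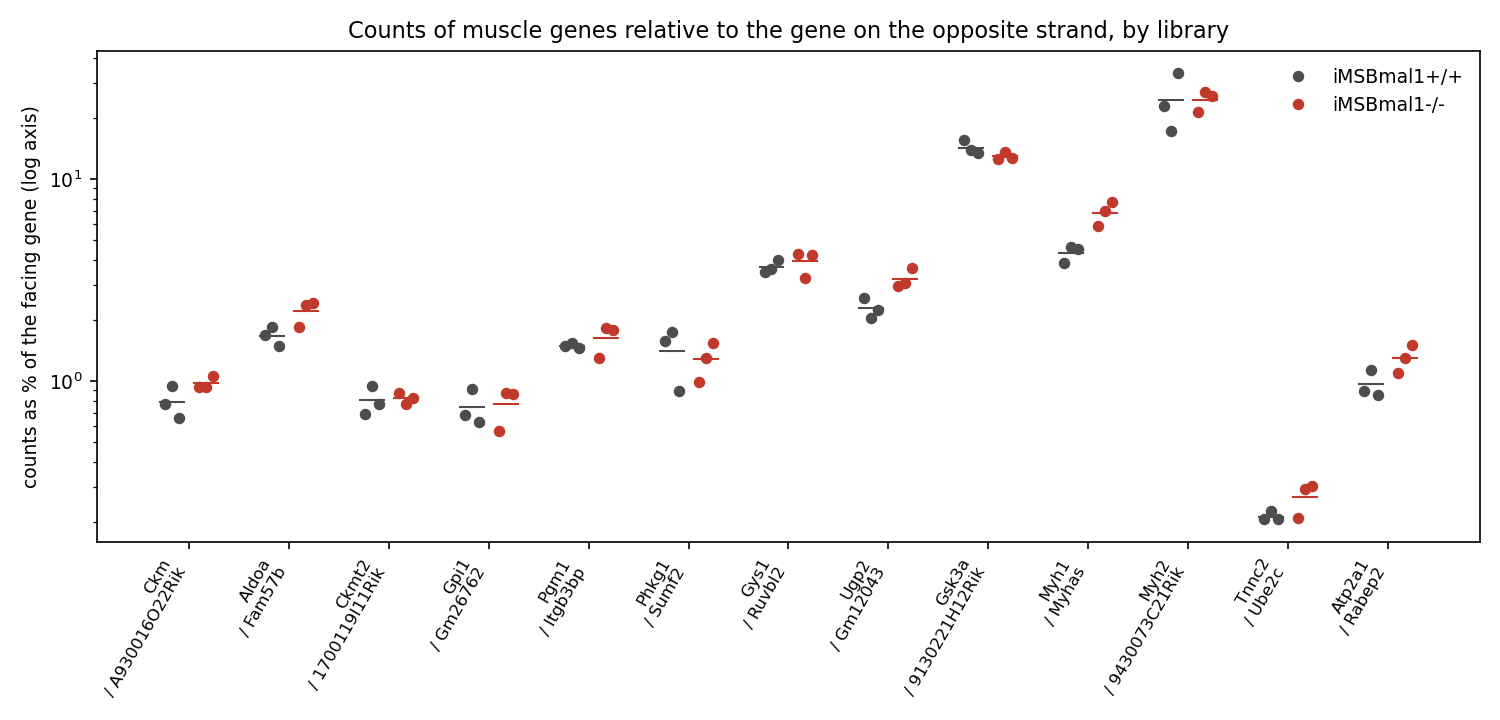
Raw counts of a gene as a percent of the counts of the gene across from it, on a log axis, with 1 point per library and a line at the mean of each genotype (n = 3). *Ckm* and *Aldoa* stand at the left, between 0.659 and 1.06% and between 1.50 and 2.43% of their opposite genes, followed by the 11 other pairs.

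The TA was compared with markers of its fibers, each read under the gene where its counts are listed. The unknown strand setting limits these markers too. *Tnnc2* had 2010 counts in all, against 842868 of *Ube2c* across from it. *Atp2a1* had 18498, against 1674470 of *Rabep2*. All 10 fast fiber markers had enough counts to be tested, led by *Myh4* (fast myosin heavy chain) with a mean of 4259.6 CPM, compared with 1 of 7 slow fiber markers. All 10 fast fiber markers also had a log2 fold change above 0, as the 8 enzyme IDs had in the same fit, with a median of 0.46. In edgeR, 2 of them passed the threshold, the myosin light chain gene *Mylpf* and the parvalbumin gene *Pvalb* (log2 fold changes 0.85 and 0.90, edgeR adjusted p = 0.00241 and 0.00700, both named after their values had been seen), where 1.83% of all tested genes did. The count was 3 with DESeq2 and 4 without iMS*Bmal1*+/+ replicate 2 or with no filter on low counts. At an unadjusted p under 0.05, 9 of the 10 were higher in iMS*Bmal1*-/- muscle, against 5.84% of all tested genes. Their summed level was 7753, 9936 and 8922 CPM in iMS*Bmal1*+/+ and 10498, 10973 and 12507 CPM in iMS*Bmal1*-/- libraries. iMS*Bmal1*+/+ replicate 2 and iMS*Bmal1*-/- replicate 3, the highest libraries for most enzymes, were also the highest in this sum. The part of the fast fiber genes in the enzyme differences was not tested.

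The 7 slow fiber markers summed to between 34.8 and 49.7 CPM, led by *Atp2a2*, with *Tnni1* at 0 counts in all libraries. The 6 adipocyte markers, led by *Fabp4*, summed to between 7.96 and 12.6 CPM, with *Lep* at 0. Fibroblast markers (5 genes, led by *Col3a1*) summed to between 19.0 and 47.9 CPM, and nerve markers (5 genes, led by *Pmp22*) to between 2.66 and 10.01 CPM. The 4 endothelial markers, led by *Tek*, had between 38.1 and 70.1 CPM and the 5 blood markers between 152 and 213 CPM. *Alas2* alone made up 150 to 210 CPM of the latter, while the 4 globin genes had between 0 and 3 counts per library each and 24 in all. The 4 macrophage markers, led by *Csf1r* and with *Adgre1* at 0, summed to 80.1, 83.6 and 55.8 CPM in iMS*Bmal1*+/+ and to 59.6, 48.5 and 62.0 CPM in iMS*Bmal1*-/- libraries. Of these 36 genes, 9 were tested and 0 passed the threshold in edgeR or DESeq2. At an unadjusted p under 0.05, 1 was lower (*Csf1r*) and 0 were higher in iMS*Bmal1*-/- muscle, against 6.08% and 5.84% of all tested genes. *Cd68* of the same list had between 3 and 10 counts per library, was not tested, and had means of 2.06 ± 0.922 CPM (SD, n = 3) in iMS*Bmal1*+/+ and 3.80 ± 0.880 CPM (SD, n = 3) in iMS*Bmal1*-/- muscle. With the strand setting unknown, low sums do not show that these fibers or cells were absent. The part of these markers in the enzyme differences was not tested.

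Among 1510 other tested genes with a mean of at least 50 CPM, those that followed *A930016O22Rik* most closely over the 6 libraries were *2310001K24Rik*, *Gm37759* and *Gm15932* (Pearson r of log2 CPM 0.969, 0.969 and 0.966). They lie across from *Fitm2*, from *Cacna1s*, and from *Dcaf11* and *Fitm1*. For *Fam57b* they were *Hmox2*, *Gm43599* and *Oxsm* (r = 0.993, 0.963 and 0.937), across from *Cdip1*, *Sdad1* and *Ngly1*. All 6 thus lie, like *A930016O22Rik* and *Fam57b* themselves, across from exons of another gene, as do 85.9% of the 1511 genes with such a mean. The values share libraries and normalization and are given as a description.

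*Bmal1* encodes a factor that binds E-boxes, whose full form is CACGTG, and the promoters in RefSeq (GRCm38.p6, from 250 bases before to 50 after a start) were searched for it. All 10 symbols had at least 1 window, 18 in all, and both motifs read the same on either strand. CACGTG was found in 1 of the 18, a *Pfkm* window at chr15:98092339-98092638, and in 7.15% of all 32851 windows. The general E-box CANNTG, which includes CACGTG, was found in 14 of the 18 and in 72.3% of all windows, with 5 matches in the *Pgam2* window (chr11:5803747-5804046) and 0 in that of *Gapdh*. A match describes the letters of the window and is no evidence of binding.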

How the data were processed

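Reads were aligned by the authors with HISAT2 (mm10), counted per gene with HTSeq and compared with DESeq2, per the submitters' processing notes and the study's methods. Tool versions, the annotation release and the strand setting are not given in the sources used here. They deposited raw counts, and a normalized signal that equals the count divided by 1 size factor per library. Raw counts were tested with edgeR 4.0.16 (R 4.3.3): TMM, the filter on low counts by genotype, and the two-sided quasi-likelihood test with Benjamini-Hochberg adjustment over 6831 genes, at 0.05. SE is the log2 fold change divided by the square root of F. The test was tried on simulated counts first. Ratios within libraries were compared by exact permutation. Gene positions, exon lengths and transcript sequences came from GENCODE mouse release 21 (GRCm38), in which 147 IDs were not found. Log2 CPM for likeness had a pseudocount of 1. Libraries of a genotype were no duplicates (chi-square over its degrees of freedom, 2.88 to 10.1). The members and lists were chosen with earlier results of these data known. Named genes were the 10 symbols, the genes across from them, the 3 genes most like *A930016O22Rik* and the 3 most like *Fam57b*. The most counted marker of each list was named too. List genes and genes across from these were named if past the threshold or, if fewer than 5, by the highest counts. Other genes, such as *Pfkfb3*, *Ugp2*, *Tnnc2* and *Cd68*, were named after their values had been seen. Alternatives were DESeq2 1.42.0, upper-quartile normalization, no filter, at least 10 counts in every library, limma 3.58.1 on log2(normalized value + 1), a replicate block, and each library left out in turn.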

Additional observations from a re-analysis of the deposited data

How the results depend on the processing

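The count of genes past the threshold (125) was 219 with no filter on low counts, where more genes are tested, and ranged from 59 to 128 when 1 library was left out, with 59 when iMS*Bmal1*-/- replicate 2 was absent and 69 when it was iMS*Bmal1*-/- replicate 1. Of the 10 tested IDs, 0 passed in edgeR under every setting without a block except the one that leaves out iMS*Bmal1*+/+ replicate 2, where *Ckm* and *Pgam2* did, so that leaving out a library gave a range of 0 to 2. The same range of 0 to 2 held for all pathway genes and the genes across from them. At an unadjusted p under 0.05, between 3 and 6 of the tested IDs were higher in iMS*Bmal1*-/- muscle over all settings. *Ckm*, *A930016O22Rik*, the first *Aldoa* ID, *Pfkm*, *Eno3*, *Gapdh*, *Pgam2* and *Pkm* were higher in iMS*Bmal1*-/- muscle under all 12 alternatives, and both count ratios under all 8 (0.19 to 0.45 for *Ckm*, 0.32 to 0.53 for *Aldoa*, on the log2 scale).

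Log2 fold changes close to 0 changed sign. The second *Aldoa* ID (0.03) was at -0.0094 with no filter and -0.0075 with limma, and between -0.062 and 0.077 when 1 library was left out. *Fam57b* (-0.03) ranged from -0.081 to 0.037. *Gm26762* (0.02) was at -0.015 with no filter and -0.010 with limma, and ranged from -0.027 to 0.082. *Iffo1* (-0.01) was at 0.0031 with limma and ranged from -0.26 to 0.27. The cause was not tested.

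The replicate numbers do not pair the samples: deviations from the genotype means of same-numbered libraries correlated at -0.04, -0.02 and -0.03, and no library correlated best with its own number. With the replicate block, 220 genes passed the threshold, 2 of the tested IDs (*Ckm* and *Pgam2*, the same 2 among the pathway genes) did, and *Iffo1* was at 0.023. Of the 10 fast fiber markers, 7 passed with the block. With between 47 and 114 counts per library for *Pgam2* and 50 to 111 for *Gapdh*, counting error limits these genes more than *Ckm*.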
